A study of Mus musculus with 4 samples.

Results

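The 30 genes described here encode the enzymes that make cholesterol, the proteins that control the transcription factor SREBP2, and proteins that move or bind sterols inside the cell. They were taken by name from the textbook pathway, with earlier results of these data known, and looked up by symbol in a table of 23859 gene symbols and 23735 loci (Sc4mol stands there as Msmo1). All 30 were listed, and 28 had a mean of at least 1 FPKM (fragment counts divided by transcript length and by the total of the library) and were tested. The cells were peritoneal macrophages of C57BL/6 mice 6 weeks old, drawn into the peritoneal cavity by 3% thioglycolate injected 3 days before collection and then cultured in medium with serum. The Ch25h_WT group was labelled ApoE-/-/Ch25h+/+ and the Ch25h_KO group ApoE-/-/Ch25h-/-, so both carry the label of a missing Apoe and differ by label at Ch25h. Each group had 2 libraries, called replicates 1 and 2. The series text names 12 mice per group in biological duplicate and does not say how the mice were pooled. A p-value here therefore reflects how far 2 libraries of a group differ, which may include technical differences. The test used, limma, also draws the spread of each gene toward that of all tested loci.

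The libraries held about 9540000 to 12400000 fragments each. Ch25h, the cholesterol 25-hydroxylase gene, was 63.3 and 65.3 FPKM in Ch25h_WT and 4.25 and 5.53 FPKM in Ch25h_KO, with the low values in the libraries labelled as lacking it. Apoe, labelled as missing in both groups, was 614 and 609.9 FPKM in Ch25h_WT and 3683 and 3373 in Ch25h_KO. These values go against the ApoE-/- label of all 4 libraries as far as a value over a whole locus can show, since it does not tell whether reads fall in a deleted part. Apoe also differed between the groups, so what a loss of Ch25h does and what goes with the difference at Apoe cannot be told apart. All 9 macrophage markers were above 1 FPKM in every library, and 0 of them passed with limma. Emr1 and Csf1r were lower in both Ch25h_KO libraries, as were 30.3% of all tested loci. Fcgr1, Cd14 and Spi1 were higher in both, as were 23.4%, and the other 4 overlapped between the groups. Of markers of other cells, 6 mast cell genes summed to 223 to 229 FPKM in Ch25h_WT and 156 to 159 in Ch25h_KO, and 5 B cell genes to 317 to 321 and 285 to 300.3. Fcer1a of the mast cell genes overlapped between the groups, as did Pax5 of the B cell genes, with means of 5.03 and 6.19 FPKM. The other 5 and 4 were lower in both Ch25h_KO libraries, as were 30.3% of all tested loci. The 6 neutrophil genes listed summed to 71.4 to 81.7 FPKM in Ch25h_WT and to 116 in both Ch25h_KO libraries. That sum was mostly S100a8, with means of 61.4 and 98.8 FPKM, and S100a9, with 13.6 and 15.7, while Cxcr2 had means of 0.586 and 0.460, Retnlg overlapped between the groups, and Mpo and Elane were listed at 0 in both Ch25h_KO libraries. Summed levels were also higher in Ch25h_KO for 2 erythroid genes, at 26 to 29.9 against 37.2 to 38.3 FPKM, and for 6 mesothelial and fibroblast genes, at 0.594 to 0.618 against 1.64 to 1.71. All 6 of the latter had a mean under 1 FPKM. Col1a2 had means of 0.208 and 0.705 FPKM and Col1a1 of 0.0941 and 0.404. Krt19 and Pdgfra were also higher, while Msln and Upk3b overlapped between the groups. T cell genes summed to 3.28 to 4.65 and eosinophil genes to 0.436 to 0.730, with Epx listed at 0. The part of these cells in the sterol gene values was not tested, and in such bulk samples fewer cells of a type and less RNA per cell cannot be told apart.

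Cells make cholesterol from acetyl-CoA through mevalonate, isoprenoids, squalene and lanosterol. SREBP2, the transcription factor that drives these genes, is made as a membrane protein of the endoplasmic reticulum (ER), where SCAP escorts it. When sterol is plentiful INSIG proteins hold SCAP in the ER, and when it is scarce SCAP takes SREBP2 to the Golgi, where a pair of proteases cut it free. Oxysterols such as 25-hydroxycholesterol, the product of Ch25h, bind INSIG and hold SREBP2 back. Macrophages also take up much cholesterol in lipoproteins, which NPC2 and NPC1 carry out of lysosomes. The comparison therefore asks whether transcripts of this machinery differ when Ch25h is deleted.

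No sterol gene passed the test between the groups. Of the 28 tested, 0 had a limma adjusted p under 0.05 (Benjamini-Hochberg over all 10074 tested loci), and the smallest was 0.197. Of all tested loci, 0.437% passed. At unadjusted p under 0.05 there were 3 sterol genes, Acat2 and Pmvk on the higher side in Ch25h_KO and Stard4 on the lower side, which is 10.7% of the 28 beside 20.9% of all tested loci. With limma's trend and robust options 7.80% of all tested loci passed and again 0 of the 28. The median log2 change, on the log2(FPKM + 1) scale and as Ch25h_KO minus Ch25h_WT, was 0.0046 over the sterol genes and -0.014 over all tested loci. Above 0 were 16 sterol genes and below it 12, beside 4599 and 5475 of all tested loci. Regardless of sign, the median size of the change was 0.062 for the sterol genes and 0.095 for all tested loci. Every one of the 28 had a 95% interval that lay inside -0.5 to 0.5 on that scale (1.41-fold either way in FPKM + 1), the lowest bound being -0.47 for Lss and the highest 0.40 for Dhcr7. With 2 libraries a group, differences inside these intervals remain compatible with the data. The intervals are before adjustment and are not a limit of detection. Larger changes also did not pass over all loci, such as -0.69 for the mast cell gene Cpa3 (limma adjusted p = 0.0622).

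**Figure D1:**
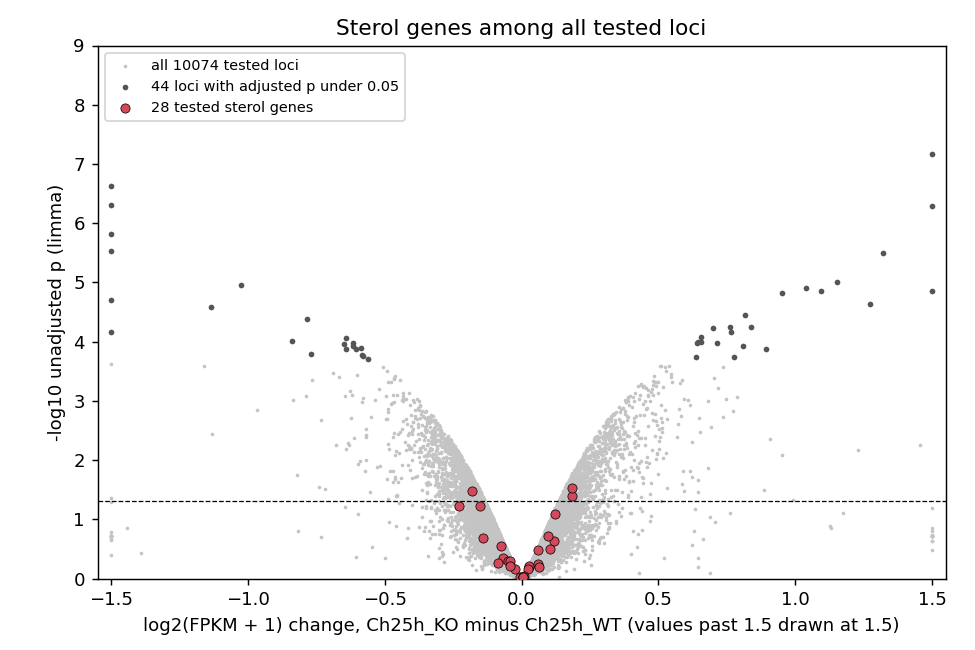
Each dot is a tested locus, with the log2(FPKM + 1) change (Ch25h_KO minus Ch25h_WT) across and -log10 of the unadjusted limma p upward. Grey dots are all 10074 loci, dark dots the 44 with adjusted p under 0.05, red dots the 28 tested sterol genes, and the dashed line is p of 0.05. The sterol genes lie near the centre, with 3 above the line.

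Promoter letters were read because SREBP2 binds sterol regulatory elements, usually beside sites of the CCAAT-binding factor NF-Y. RefSeq promoters (GRCm38.p6, 250 bases before to 50 after a gene's start) were at hand for 25 of the 30 genes. The letters TCACNCCAC, a core of the element, stood on either strand in Hmgcs1 and Stard3, which is 8% of the 25. They stood in 1.44% of all 27025 genes with a promoter and 1.37% of the 7804 symbols of tested loci with a promoter. Hmgcs1 was not tested, and of the tested sterol genes with a promoter 1 had these letters and 22 did not. The variant CACCCCAC, which the first motif can contain, stood in Hmgcs1 and Acat2, again 8%. It stood in 3.30% of all genes and 3.69% of symbols of tested loci, and in 1 tested sterol gene against 22 without. CCAAT stood in 21 of the 25, or 84.0%, beside 41.1% of all genes and 42.8% of symbols of tested loci. A match is a description of the letters and not a shown binding site. The promoters of the genes with either SRE motif are printed for their 250 bases before the start, 5′ to 3′ on the gene's strand, with matches of all these motifs in capitals (ATTGG is CCAAT on the other strand). Hmgcs1 is at chr13:119690101-119690350 on the plus strand, Stard3 at chr11:98358118-98358367 on the plus strand and Acat2 at chr17:12960726-12960975 on the minus strand.
Hmgcs1: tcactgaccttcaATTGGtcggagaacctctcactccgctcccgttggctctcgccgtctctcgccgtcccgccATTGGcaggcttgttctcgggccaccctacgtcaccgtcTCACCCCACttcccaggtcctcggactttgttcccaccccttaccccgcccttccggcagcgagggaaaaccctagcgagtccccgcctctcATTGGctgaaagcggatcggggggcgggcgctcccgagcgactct
Stard3: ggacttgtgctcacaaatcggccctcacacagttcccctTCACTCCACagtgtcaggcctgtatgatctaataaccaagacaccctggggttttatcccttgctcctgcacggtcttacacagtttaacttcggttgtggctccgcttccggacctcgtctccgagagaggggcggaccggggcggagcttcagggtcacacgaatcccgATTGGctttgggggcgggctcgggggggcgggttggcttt
Acat2: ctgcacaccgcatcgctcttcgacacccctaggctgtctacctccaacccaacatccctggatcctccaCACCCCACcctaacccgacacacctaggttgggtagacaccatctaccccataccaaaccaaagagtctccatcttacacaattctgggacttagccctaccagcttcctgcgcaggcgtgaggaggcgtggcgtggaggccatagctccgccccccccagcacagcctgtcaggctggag
Hmgcs1 holds 3 CCAAT matches around its SRE letters, which start 137 bases before the gene's start. In Stard3 the SRE letters start 211 bases before it, and in Acat2 181 bases before it. Of these genes, Hmgcs1 gave no level, Stard3 had a log2(FPKM + 1) change of -0.023 and Acat2 one of 0.18. The 19 tested genes with CCAAT had a median log2 change of 0.026, and the 4 tested genes with a promoter and no CCAAT one of 0.016.

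Acat2 and Acss2, of the acetyl-CoA step, were higher in both Ch25h_KO libraries than in either Ch25h_WT library. Acat2 did not pass the test and Acss2, apart by a narrow margin, was not tested. Of all tested loci 23.4% were likewise higher with no overlap. Acat2, the cytosolic thiolase that joins acetyl-CoA units, was 3.77 and 3.46 FPKM in Ch25h_WT and 4.38 and 4.09 in Ch25h_KO. The log2(FPKM + 1) change was 0.18 (SE 0.065, 95% interval 0.012 to 0.36, limma adjusted p = 0.222), and the ratio of means 1.17. Acss2, which makes acetyl-CoA from acetate, was 0.739 and 0.855 against 0.864 and 0.995 FPKM. With a mean under 1 FPKM it was not in the tested set, and it rested on about 31 to 34 fragments a library, a counting error near 18.1%. Its exons also overlap those of Gss on the opposite strand, which was 13.3 and 12.6 against 10.5 and 9.13 FPKM.

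The enzymes of the mevalonate step had log2(FPKM + 1) changes of 0.061 to 0.18, none past the test. Hmgcs1, which makes HMG-CoA from the product of Acat2, was listed at 0 in all 4 libraries. Its symbol stands on 2 loci in the table. In all, 202 symbols stand on more than 1 locus, and 81.7% of them were at 0 on all their loci, against 34.6% of symbols with a single locus. The 0 is therefore given as a listing and not as a level. Pmvk, the kinase that adds the second phosphate to mevalonate, was 5.83 and 6.01 FPKM in Ch25h_WT and 6.63 and 7.10 in Ch25h_KO. Both Ch25h_KO libraries were higher, with a log2 change of 0.18 (SE 0.059, 95% interval 0.029 to 0.34, limma adjusted p = 0.197). Mvd, the decarboxylase that makes isopentenyl pyrophosphate, was 17.4 and 17 against 19.2 and 18.4 FPKM, again with no overlap (log2 change 0.12, SE 0.055, limma adjusted p = 0.297). Mvk, the kinase before Pmvk, was 2.37 and 2.41 against 2.22 and 2.89 FPKM. Its Ch25h_KO libraries lay on either side of both Ch25h_WT libraries.

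The isoprenoid step, and the step from squalene to lanosterol, had their 6 genes on the lower side in Ch25h_KO, none past the test. Of all 10074 tested loci, 5475 also had a change below 0. The changes of Fdps, Ggps1 and Fdft1 turned sign when a library was left out. Idi1, the isomerase that makes the starter unit of all isoprenoids, was 4.43 and 4.36 FPKM in Ch25h_WT and 4.03 and 3.68 in Ch25h_KO. The groups did not overlap, and the log2 change was -0.15 (SE 0.061, 95% interval -0.31 to 0.0097, limma adjusted p = 0.258). Fdps, which makes farnesyl pyrophosphate, was 21.9 and 20.2 against 21.5 and 19.4 FPKM, and in each group replicate 1 was the higher. Ggps1, which extends farnesyl to geranylgeranyl pyrophosphate and so leads away from sterols, was 9.54 and 10.5 against 9.72 and 9.58 FPKM, with overlapping groups.

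Lss, the cyclase that makes lanosterol, had the largest change among the 28 tested sterol genes. It was 4.25 and 4.66 FPKM in Ch25h_WT and 3.31 and 4 in Ch25h_KO, with no overlap, but Ch25h_KO replicate 2 was closer to Ch25h_WT replicate 1 than to Ch25h_KO replicate 1. The log2 change was -0.23 (SE 0.093, 95% interval -0.47 to 0.014, limma adjusted p = 0.258), and it was -0.12 without Ch25h_KO replicate 1. Sqle, the squalene epoxidase that is rate-limiting for the later steps, was 3.17 and 3.25 against 2.51 and 3.16 FPKM. Ch25h_KO replicate 1 was the low library and Ch25h_KO replicate 2 was next to the Ch25h_WT values, and without Ch25h_KO replicate 1 the log2 change moved from -0.14 to -0.018. Fdft1, the squalene synthase, was 26.8 and 28.5 against 26.7 and 26.8 FPKM (log2 change -0.043, limma adjusted p = 0.715). Its exons overlap on the opposite strand those of Ctsb, the cathepsin B gene, which was 1222 to 1394 FPKM, and without known strand their reads cannot be told apart.

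**Figure D2:**
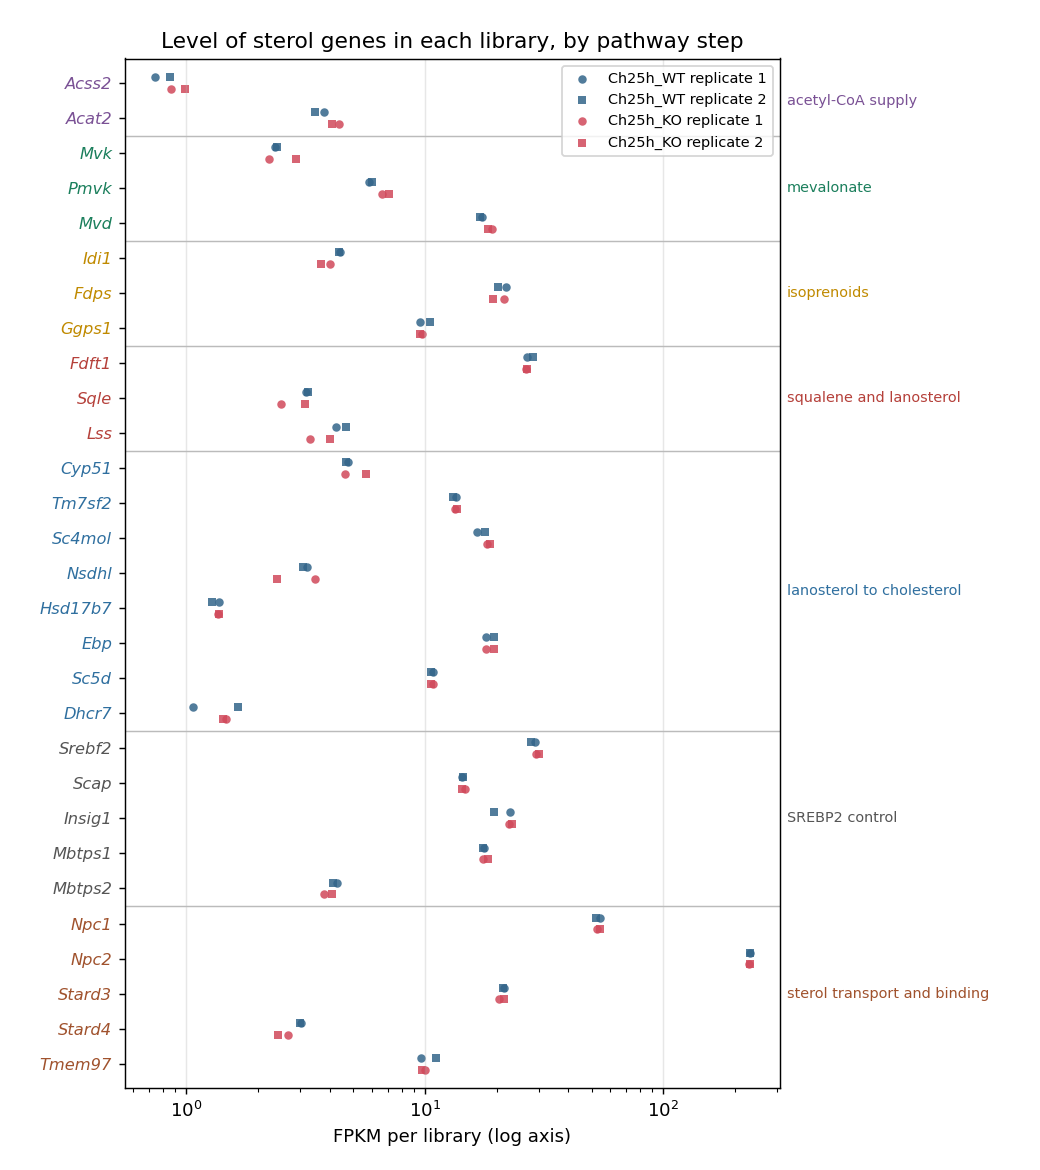
FPKM of each listed sterol gene (log axis) in the 4 libraries, ordered by pathway step, with Ch25h_WT in blue, Ch25h_KO in red, replicate 1 as circles and replicate 2 as squares. Hmgcs1, listed at 0, is left out. Mean levels run from 0.863 FPKM for Acss2 to 230.1 for Npc2, while the points of a gene stay close together.

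From lanosterol to cholesterol, 7 of 8 genes had a log2 change above 0 and 1 below, beside 4599 and 5475 of all tested loci. The changes lay between -0.087 and 0.10, and 0 passed with limma (0 also at unadjusted p under 0.05). Those of Cyp51, Nsdhl, Hsd17b7, Ebp, Sc5d and Dhcr7 turned sign when a library was left out. Sc4mol, a sterol methyl oxidase, was 16.6 and 17.9 FPKM in Ch25h_WT and 18.2 and 18.8 in Ch25h_KO. It was the gene of this step whose groups did not overlap (log2 change 0.10, SE 0.063, limma adjusted p = 0.441). Cyp51, the lanosterol demethylase, was 4.77 and 4.66 against 4.65 and 5.68 FPKM. Only Ch25h_KO replicate 2 was high, and the 95% interval of the change ran from -0.14 to 0.35. Nsdhl, the sterol dehydrogenase that works with Sc4mol, was 3.21 and 3.08 against 3.47 and 2.41 FPKM. Its Ch25h_KO replicates differed by 0.39 on the log2(FPKM + 1) scale, the widest gap of any tested sterol gene between Ch25h_KO libraries, at about 50 to 86 fragments a library.

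The other 5 enzymes of these late steps had overlapping groups. Ebp, the sterol isomerase, was 18.0 and 19.6 against 18.1 and 19.6 FPKM, and Sc5d, the desaturase after it, was 10.8 and 10.6 FPKM in both groups. Their log2 changes were 0.0047 (95% interval -0.19 to 0.20) and 0.0035 (95% interval -0.14 to 0.14). Dhcr7, which makes cholesterol from its direct precursor, was 1.07 and 1.65 against 1.47 and 1.43 FPKM. Both its lowest and its highest value were from Ch25h_WT, a gap of 0.35 on the log2 scale, and each value rested on about 37 to 46 fragments. Hsd17b7, the ketosteroid reductase of the demethylation complex, was 1.28 to 1.37 FPKM in all 4 libraries. Tm7sf2, a sterol reductase, was 13.1 to 13.7 FPKM, but its locus also carries Vps51, so this level belongs to both genes.

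The 5 genes that control SREBP2 had log2 changes between -0.074 and 0.12, and 0 passed with limma (0 also at unadjusted p under 0.05). Srebf2, which encodes SREBP2, was 29.1 and 27.8 FPKM in Ch25h_WT and 29.3 and 30.1 in Ch25h_KO. The groups did not overlap, by a narrow margin, and the change of 0.061 (SE 0.056, 95% interval -0.087 to 0.21) did not pass (limma adjusted p = 0.578). Insig1, both a brake on SREBP2 and one of its own targets, was 22.7 and 19.6 against 22.6 and 23.3 FPKM. Ch25h_WT replicate 2 was the low library and the other 3 lay within 22.6 to 23.3 FPKM. Its change was 0.12 (SE 0.085, 95% interval -0.11 to 0.34, limma adjusted p = 0.481), and 0.015 without Ch25h_WT replicate 2. Scap, the escort, was 14.4 and 14.5 against 14.7 and 14.3 FPKM. Mbtps1, the protease that makes the first cut in SREBP2, was 17.8 and 17.6 against 17.5 and 18.5 FPKM. Mbtps2, which makes the second cut within the membrane, was 4.28 and 4.13 against 3.78 and 4.11 FPKM, with the groups apart by a narrow margin (log2 change -0.074, limma adjusted p = 0.533). Mbtps2 exons overlap those of Yy2 on the same strand, which was 1.62 and 0.912 against 1.18 and 1.16 FPKM.

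Sterol transport held the most abundant of the 30 genes. Npc2, the soluble lysosomal protein that hands cholesterol to NPC1, was 229.9 and 231 FPKM in Ch25h_WT and 229 and 230.4 in Ch25h_KO. Its change was -0.0046 (SE 0.051, 95% interval -0.14 to 0.13) and its ratio of means 0.997. Npc1, the lysosomal membrane protein that receives that cholesterol, was 54.4 and 52.2 against 52.5 and 54.4 FPKM, with the groups fully interleaved. Its exons overlap those of Rmc1 on the opposite strand, which was 26.1 to 27.1 FPKM. Stard3, which tethers late endosomes to the ER, was 21.4 and 21.2 against 20.4 and 21.5 FPKM. Tmem97, a sterol-binding protein of the ER that is also an SREBP2 target, was 9.67 and 11.2 against 10.0 and 9.75 FPKM, with overlapping groups.

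Stard4, a soluble carrier that moves cholesterol between membranes and is induced by SREBP2, was the one transport gene whose groups did not overlap. It was 3.03 and 3.01 FPKM in Ch25h_WT and 2.67 and 2.42 in Ch25h_KO, a mean of 3.02 ± 0.0140 against 2.54 ± 0.177 FPKM (SD, n = 2 libraries per group). The log2 change was -0.18 (SE 0.061, 95% interval -0.34 to -0.022, limma adjusted p = 0.205), on about 120 to 190 fragments a library.

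**Figure D3:**
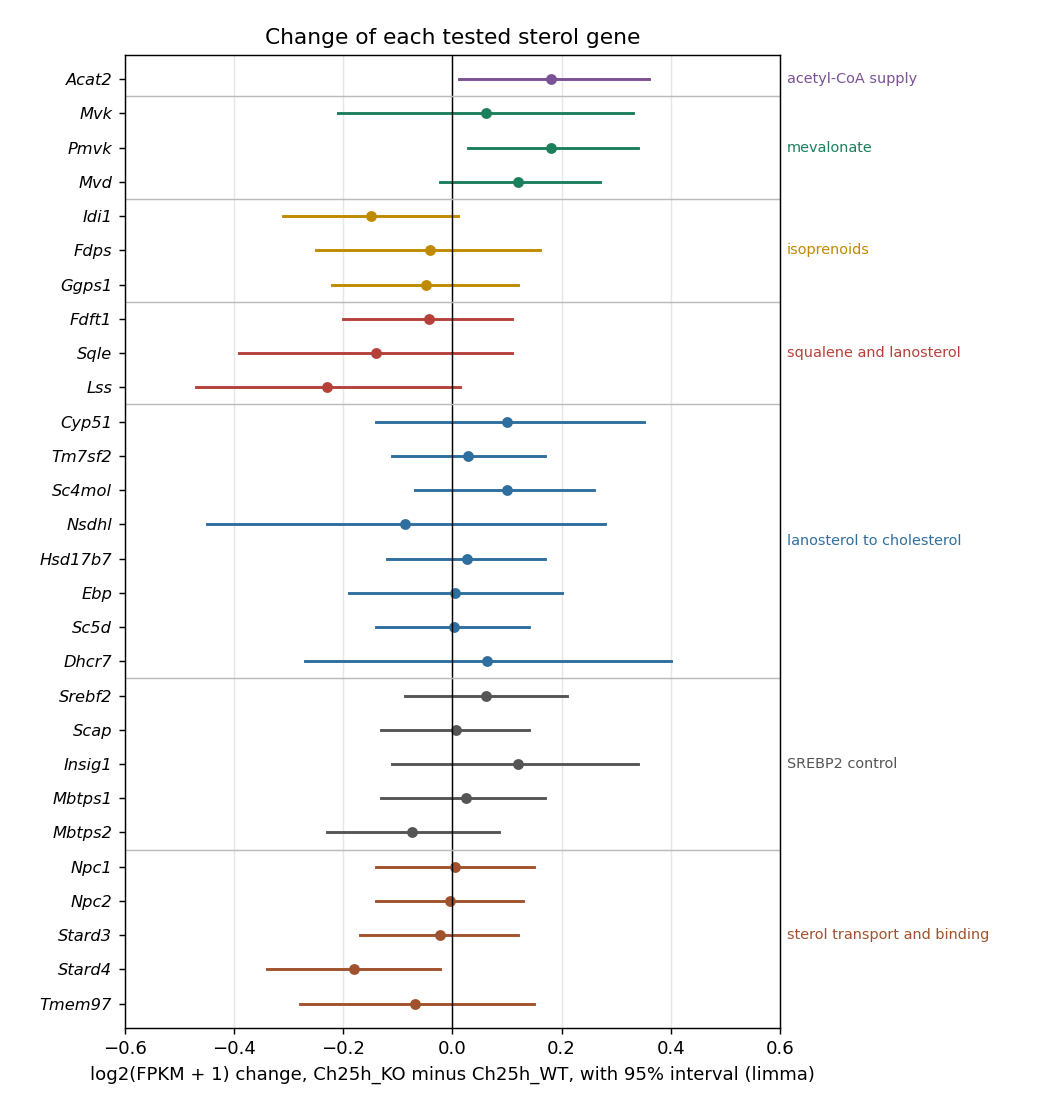
Points are the log2(FPKM + 1) change of each tested sterol gene (Ch25h_KO minus Ch25h_WT) and lines the 95% interval from limma, ordered and coloured by pathway step. The intervals of 25 of the 28 genes cross 0, those of Acat2, Pmvk and Stard4 do not before adjustment, and all 28 stay inside -0.5 to 0.5.

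The groups did not overlap for 5 tested sterol genes on the higher side in Ch25h_KO (Acat2, Pmvk, Mvd, Sc4mol and Srebf2), or 17.9%, beside 23.4% of all tested loci. On the lower side they were also 5 (Idi1, Sqle, Lss, Mbtps2 and Stard4), 17.9% beside 30.3% of all tested loci. With 2 libraries against 2, an exact permutation test of a single gene cannot give a two-sided p below 0.333. The difference between group means was larger than both replicate differences for 6 genes, namely Acat2, Pmvk, Mvd, Idi1, Lss and Stard4. Across the 28 the median difference between replicates, on the log2(FPKM + 1) scale, was 0.047 in Ch25h_WT and 0.065 in Ch25h_KO, and that between group means was 0.062. The replicates did not order the genes one way, since 16 were higher in Ch25h_WT replicate 1 and 12 in replicate 2, and 11 were higher in Ch25h_KO replicate 1 and 17 in replicate 2. In level, the 30 genes ran from Npc2 at a mean of 230.1 FPKM over the 4 libraries, through Npc1 at 53.4, Srebf2 at 29.1, Fdft1 at 27.2 and Insig1 at 22, down to Dhcr7 at 1.41, Hsd17b7 at 1.34 and Acss2 at 0.863.

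Other genes of the sterol pathway were taken as 4 lists, 53 genes in all, of which 51 were tested and 0 passed with limma over all loci. At unadjusted p under 0.05 there were 13, or 25.5%, beside 20.9% of all tested loci. These 13 include Pdss1, which reached the 1 FPKM limit only through the Ch25h_KO libraries. The median log2(FPKM + 1) change of the 51 genes was -0.047 beside -0.014 over all tested loci. Above 0 were 17 and below it 34, beside 4599 and 5475 of all tested loci. The groups did not overlap for 7 of the 51 on the higher side, 13.7% beside 23.4% of all tested loci. Pdss1 is among these 7 as well. On the lower side they did not overlap for 23, 45.1% beside 30.3%. The lists were chosen with earlier results of these data known.

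Lipa, Scarb2 and Gramd1a, all of the list of other sterol transport genes, had the largest changes among these 51 genes, and 0 of them passed. Lipa, the lysosomal acid lipase that frees cholesterol from its esters, was 149 and 149 FPKM in Ch25h_WT and 113 and 115 in Ch25h_KO. It did not pass (log2 change -0.38, SE 0.051, limma adjusted p = 0.0783), and it passed with limma among loci of at least 5 FPKM (adjusted p = 0.0376, with 2.42% of those loci passing) and with the trend and robust options (adjusted p = 0.000646). Scarb2, the lysosomal membrane protein LIMP2, was 111 and 114 against 90.0 and 90.9 FPKM (log2 change -0.31, SE 0.053, limma adjusted p = 0.1). Gramd1a, which carries cholesterol from the plasma membrane to the ER, was 25.7 and 26.1 against 33.5 and 31.4 FPKM, and both Ch25h_KO libraries were higher (log2 change 0.31, SE 0.059, limma adjusted p = 0.110). Stard3nl, a relative of Stard3, had a log2 change of 0.12. Of the 11 tested genes of this list, 4 had a change above 0 and 7 below.

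Of 14 tested genes of SREBP traffic and cofactors, 2 had a log2 change above 0 and 12 below. For all tested loci these numbers were 4599 and 5475. With limma 0 of the 14 passed, beside 0.437% of all tested loci. At unadjusted p under 0.05 there were 4, beside 20.9% of all tested loci. Nfya, a subunit of the CCAAT-binding factor NF-Y, was 32.6 and 33.4 FPKM in Ch25h_WT and 26.6 and 27.7 in Ch25h_KO (log2 change -0.27, SE 0.055, limma adjusted p = 0.115). Sec23a, a coat protein of the vesicles that leave the ER, was 11.9 and 11.7 against 9.69 and 10.2 FPKM (log2 change -0.23, limma adjusted p = 0.136). For both, each Ch25h_KO library was below each Ch25h_WT library. Sar1b, the small GTPase that starts these vesicles, and Srebf1, the gene of SREBP1, had changes of 0.092 and 0.032.

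Of 13 tested genes of sterol-regulated degradation in the ER, 4 had a change above 0 and 9 below, with 0 past the test by limma. At unadjusted p under 0.05 there were 3, beside 20.9% of all tested loci. Ube2g2, a ubiquitin-conjugating enzyme of the ER, was 58.8 and 59.8 against 49.6 and 51.3 FPKM (log2 change -0.23, limma adjusted p = 0.131). Its partner gene Aup1 was on the other side, at 62.8 and 60.8 against 73.4 and 70.9 FPKM (log2 change 0.22, limma adjusted p = 0.142). Rnf145, a sterol-responsive ubiquitin ligase, had a change of -0.16 and Erlin2 one of 0.090. With limma's trend and robust options 6 of the 51 genes passed, or 11.8%, beside 7.80% of all tested loci. They were Lipa, Scarb2, Nfya and Ube2g2 on the lower side and Gramd1a and Aup1 on the higher.

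Of 13 tested genes that use the isoprenoids made on the way to sterols, 7 had a change above 0 and 6 below, and 0 passed with limma. At unadjusted p under 0.05 there were 3, beside 20.9% of all tested loci. Of these 3, Pdss1, which builds the side chain of ubiquinone, was 0.754 and 0.879 against 1.16 and 1.24 FPKM. Its group means were 0.816 and 1.20 FPKM, and it reached the 1 FPKM limit only through the Ch25h_KO libraries, so its place among the tested genes depends on the difference and its p is not given. Nus1, a subunit of the enzyme that makes dolichol, was 59.1 and 56.8 against 64.6 and 64.1 FPKM. Fnta, a subunit shared by the protein prenyl transferases, was 36.7 and 35.9 against 33.0 and 32.3 FPKM, and Icmt, which methylates prenylated proteins, had a change of -0.10. For each of these 4 genes the groups did not overlap, as for 53.7% of all tested loci. Over the 13 genes they did not overlap for 3 on the higher side and 3 on the lower, and overlapped for 7.

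**Figure D4:**
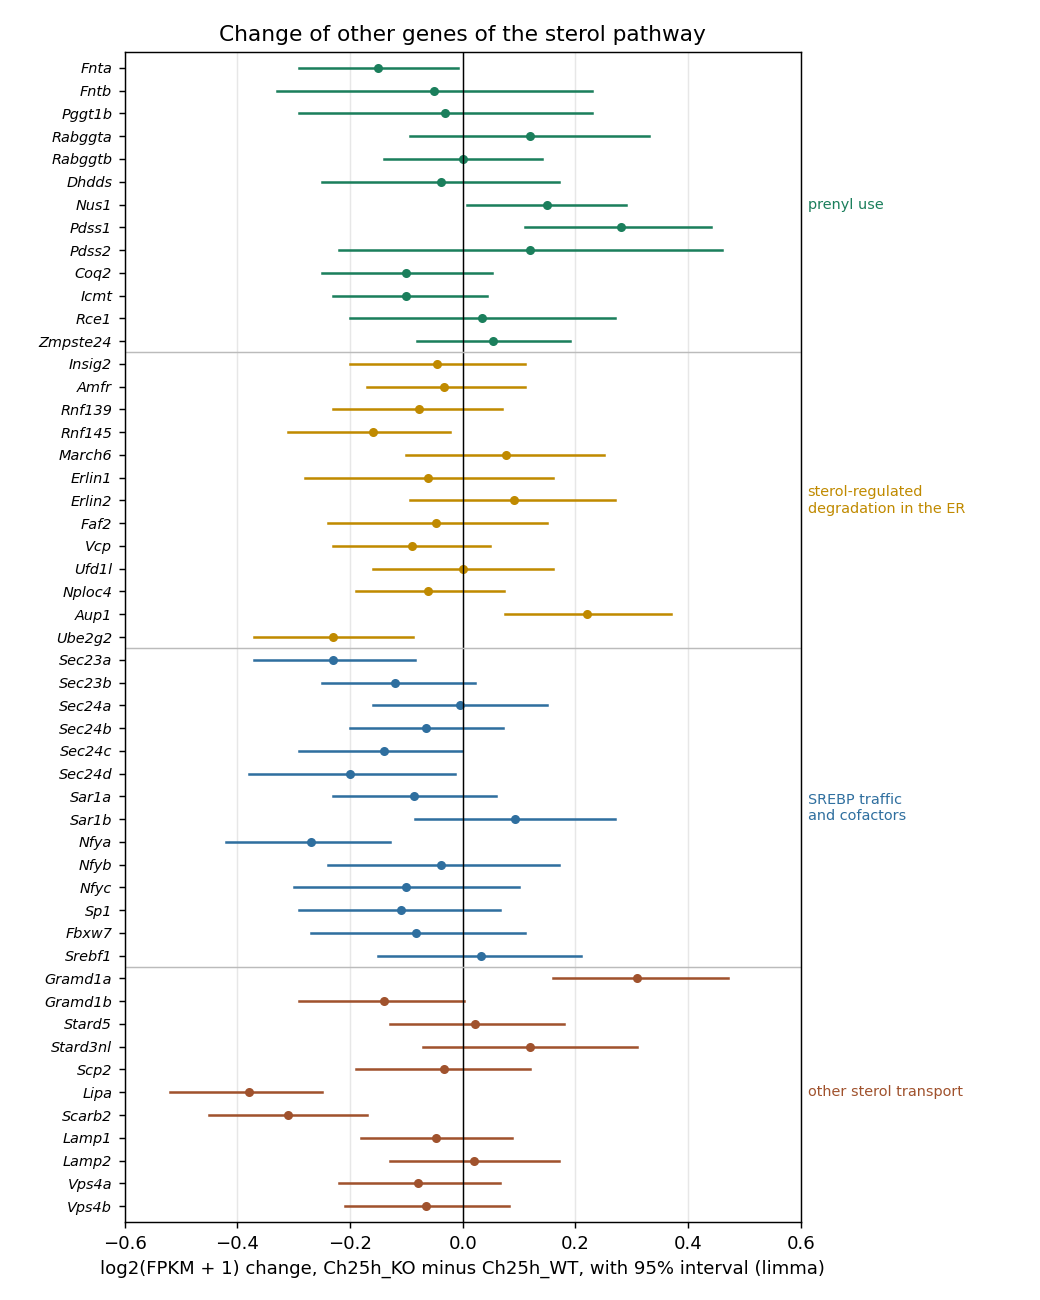
Log2(FPKM + 1) change (Ch25h_KO minus Ch25h_WT) with its 95% limma interval for the 51 tested genes of 4 further pathway lists. Lipa at -0.38 and Gramd1a at 0.31 are the outermost points, and most points of the traffic list lie below 0.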

How the data were processed

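RNA-seq values of 4 libraries were used. The authors deposited FPKM per locus and library; the header names no unit, which was read from the values. Per the submitters' processing notes, bcl2fastq, TopHat2 2.0.14, Cufflinks 2.2.1 and mm9 were used; annotation, strand setting and scaling: not given in the sources used here. Lines of 1 locus were joined (24192 lines, 23735 loci; 0 per-sample columns were left out). Groups came from sample titles. limma 3.58.1 in R 4.3.3 was run on log2(FPKM + 1) for the 10074 loci that averaged 1 FPKM or more, a scale that understates changes of low genes; no count test was run. Relative depth came from low FPKM (89.1% of 2274 loci under 0.2 FPKM at whole multiples, tolerance 0.01 fragments, widened for larger counts), absolute depth and member fragments from GENCODE vM21 transcript lengths; these are approximate, and errors cover counting only. Exon overlaps came from the same annotation (GRCm38, names only): 7 of 30 genes overlapped another protein-coding gene (Acss2, Fdps, Fdft1, Cyp51, Tm7sf2, Mbtps2 and Npc1). Members and lists were chosen with earlier results of these data known. All 30 members are named, and per further list at most the 2 smallest p in each direction. 1 marker gene is not reported here. Alternatives changed the pseudocount, filter, scaling, spread model, replicate block and libraries.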

Additional observations from a re-analysis of the deposited data

How the results depend on the processing

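None of the 28 tested sterol genes passed with limma under any of the alternatives run (pseudocount 0.1, no filter, at least 5 FPKM, median-ratio scaling, trend and robust options, replicate block, each library left out), the smallest adjusted p being 0.131 for Pmvk among loci of at least 5 FPKM. The count over all loci moved from 44 to 18 with no filter, 175 at a mean of at least 5 FPKM, 786 with the trend and robust options and 13 to 21 with a library left out, which leaves a lone library in its group that is assumed to vary like the others. With the replicate number as a block it was 6. The sample titles do not say whether same-numbered libraries were paired. Their replicate differences had a correlation of 0.0123 across loci, which does not decide it. The count of sterol genes whose groups do not overlap was 10, and 4 of 17 at a mean of at least 5 FPKM, since fewer were tested, and 16 to 21 with a library left out, since fewer samples must separate; the block and the trend options give no such count. With median-ratio scaling the change of Npc2 was 0.012. Leaving out a library turned the sign of 15 sterol genes, none of them past the test, over these ranges: Mvk -0.075 to 0.20, Fdps -0.11 to 0.031, Ggps1 -0.11 to 0.015, Fdft1 -0.086 to 0.00058, Cyp51 -0.016 to 0.22, Nsdhl -0.28 to 0.11, Hsd17b7 -0.0018 to 0.055, Ebp -0.055 to 0.064, Sc5d -0.014 to 0.021, Dhcr7 -0.11 to 0.24, Scap -0.0088 to 0.024, Mbtps1 -0.015 to 0.063, Npc1 -0.025 to 0.034, Stard3 -0.058 to 0.013 and Tmem97 -0.16 to 0.030. The other 13 kept their sign. Depth limits Dhcr7, Hsd17b7, Acss2, Mvk and Nsdhl most, with counting errors of 13.1% to 18.1%.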
